A study of Mus musculus with 6 samples.

Results

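The comparison of activin with vehicle at 2 h set 1 array of LβT2 cells treated with activin A at 30 ng/ml against 1 array of the same cells given vehicle for the same time. These were 2 of the 6 arrays of the series, and they were chosen by their labels, not by any measured value. The other 4 arrays paired activin with vehicle after 1 h and after 6 h. All 6 cultures, vehicle included, had been kept in serum-free medium without phenol red for 16 h before treatment. LβT2 is a mouse pituitary gonadotrope line from a tumour of mice in which regulatory sequence of the luteinizing hormone beta gene drove a viral oncogene, so it is a dividing, clonal model of the hormone cell. Each combination of treatment and time is a single RNA sample, so no difference at 2 h has a replicate check and no test was possible. All folds below are ratios of linear signals, in arbitrary units, of the activin array over the vehicle array at 2 h unless another time is named. In a bulk sample, fewer cells of a type and less RNA per cell cannot be told apart.

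Activin is a dimer of inhibin beta subunits and a ligand of the TGF-beta family. It binds type II and type I receptor kinases, which phosphorylate Smad2 and Smad3. These join Smad4, enter the nucleus and act on target genes, among them genes for proteins that damp the same pathway, such as Smad7 and SnoN (Skil). In gonadotropes activin is best known as the inducer of the follicle-stimulating hormone beta subunit gene, Fshb, while inhibin and follistatin oppose it.

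The arrays were alike in overall signal, with a trimmed mean of 500.002 on each and medians of 151 on the activin array and 160.1 on the vehicle array at 2 h, within a range of 151 to 166.4 over the 6. A probe set was used where its mean over the 6 arrays reached a fixed limit, the whole number next above the 154.95 of Itgb7, which lay just outside; Usp53 and Odf2l, exactly at the limit, lay just inside. This kept 22814 of 45101 probe sets and 11500 named genes, and the limit is the one meant wherever a signal is called under the limit. Of 9 gonadotrope markers, 8 passed the limit, and the summed signal of all 9 was 35481 on the activin array and 30158 on the vehicle array at 2 h, against 28563 to 30158 over the 3 vehicle arrays. Cga was the largest part of both 2 h sums, at 16715 and 13900. Nr5a1 (2858 and 3429) and Gata2 (2969 and 3060) read lower with activin, and the other markers read higher. Fshb itself did not pass: its signals at 2 h were 15.7 with activin and 6.4 with vehicle, far under the limit, and those at 6 h were 78.4 and 38.7. Of 10 markers of other pituitary lineages on the array, 3 passed (Tshb, Pomc and Crhr1), and the summed signals of all 10 were 1698 and 1544 at 2 h, while Gh, Prl and Sox2 were under the limit on all arrays. Of 12 markers of fibroblasts, endothelium and blood cells, 6 passed, and the summed signals of all 12 were 3596 and 3645. Among 35 control probe sets past the limit, 1 differed by at least 1.5-fold, a 5′ probe set of 18S ribosomal RNA at 1171 with activin and 643 with vehicle, and its part in the results was not tested. The same probe set read 12201.8 on the activin array at 1 h and 610.1 on the vehicle array at 1 h.

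At 2 h the brightest probe set of 319 genes (2.77% of 11500) read at least 1.5-fold higher with activin, and that of 336 genes (2.92%) at least 1.5-fold lower. At least 2-fold, 73 genes (0.635%) were higher and 70 (0.609%) lower. For scale, pairs of vehicle arrays taken at different times, which share the 2 h vehicle array in 2 of 3 cases, had lower but sizeable counts past 1.5-fold. Vehicle at 2 h over 1 h had 223 genes higher (1.94%) and 192 lower (1.67%), vehicle at 6 h over 2 h had 196 (1.7%) and 230 (2%), and vehicle at 6 h over 1 h had 264 (2.3%) and 237 (2.06%). In both directions together, activin at 2 h had 655 genes past 1.5-fold, against 415, 426 and 501 for these vehicle pairs. The vehicle pairs also differ in time, so they do not measure the spread between replicates. The higher and the lower genes differed in brightness. From the dimmest to the brightest of 4 equal groups of genes, the higher genes numbered 150, 65, 69 and 35, and the lower genes 243, 73, 16 and 4. The SD of the log2 ratio over the genes of a group was 0.44, 0.30, 0.23 and 0.17 in the same order. Of the lower genes, 146 had 1 of the 2 signals under the limit, against 81 of the higher genes, and raising every such signal to the limit left 248 lower and 289 higher genes.

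**Figure D1:**
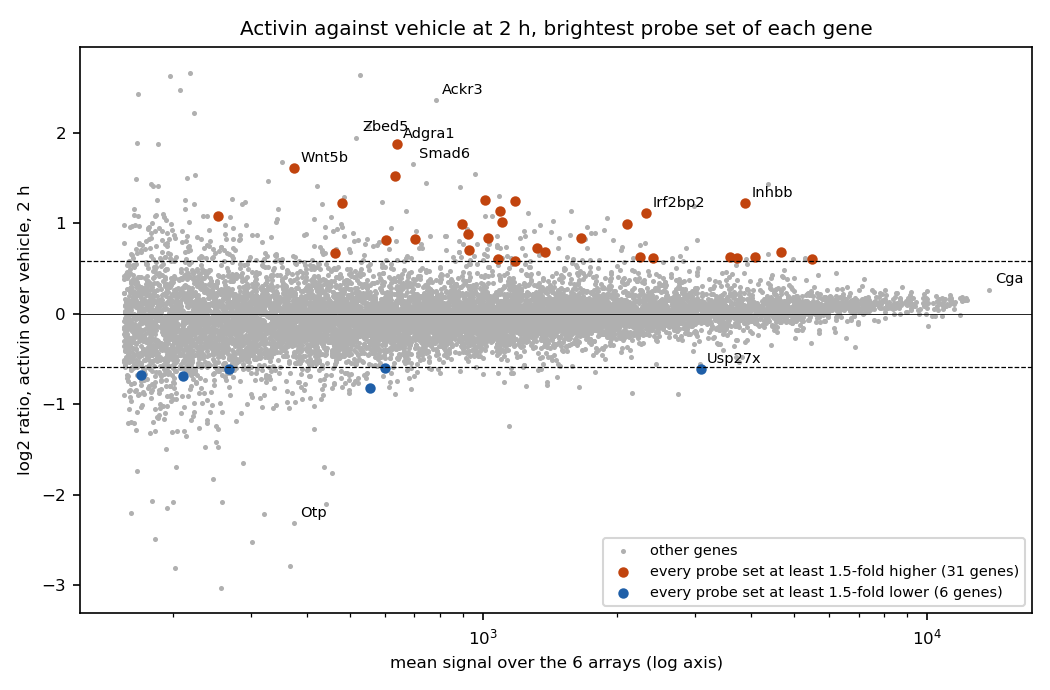
Each point is 1 of 11500 genes, shown by its brightest probe set: the x axis is the mean signal over the 6 arrays on a log axis, and the y axis is the log2 ratio of activin over vehicle at 2 h, with dashed lines at 1.5-fold. Orange marks the 31 genes and blue the 6 genes whose probe sets all passed 1.5-fold, and the cloud narrows from dim to bright genes.

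In the brightest of these groups the 4 lower genes were Marchf7, a ubiquitin ligase, Htr1b, a serotonin receptor, Lats1, a kinase of the Hippo pathway, and Usp27x, a deubiquitinase; the first 3 are named because their count is small, not by the rule for named genes. The 35 higher genes of that group became 23 when the arrays were quantile normalized, an alternative chosen after seeing the data, while the 4 lower genes remained 4 in number. Rflnb, the actin regulator refilin B, had the highest ratio among the 35, with 6355 against 2357, and Evc2, a component of the primary cilium, read 4827 against 2112; both were picked after their values were seen. Very bright genes were shifted together on the activin array: 501 genes with a mean signal of at least 5000 had a median log2 ratio of 0.09, and 430 of them read higher. After quantile normalization their median was 0.00. That method gives all arrays the same set of values, so it removes a shift shared by the brightest genes whatever its source. The 0.00 therefore cannot show where the shift came from.

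Many genes are read by several probe sets, and 5063 of the 11500 genes had at least 2 past the limit. Every probe set of a gene was at least 1.5-fold higher in 31 of these genes (0.612%) and at least 1.5-fold lower in 6 (0.119%), whereas in 21 genes (0.415%) probe sets passed 1.5-fold in opposite directions. Between vehicle arrays this agreement was rarer: 0 genes higher (0%) and 2 lower (0.0395%) at 2 h over 1 h, 4 (0.079%) and 1 (0.0198%) at 6 h over 2 h, and 6 (0.119%) and 3 (0.0593%) at 6 h over 1 h. Thus 6 lower genes at 2 h were no more than the highest count between vehicle arrays, and the 31 higher genes exceeded it. The lower count was the less stable: it was 3 with arrays centred on their medians, 2 with quantile normalization and 1 with a filter at the 70th percentile of mean signal, against 32, 29 and 21 higher genes. With the mean of the 3 vehicle arrays as reference 30 genes were higher on every probe set, and 20 of them were among the 31. Of 114 higher genes with several probe sets, 87 had all of them on the higher side at any size. Of 71 lower genes with several probe sets, 43 had all of them on the lower side. The log2 ratios of the brightest and the next brightest probe set correlated with Pearson's r = 0.27 across the 5063 genes, from 0.19 where the dimmer probe set was under 310 to 0.43 where it was at least 4 times 310; these are correlations across genes on the same 2 arrays, and genes are not replicates. Probe sets of a gene share the RNA sample and can share sequence, so their agreement speaks to the probes and not to another culture.

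**Figure D2:**
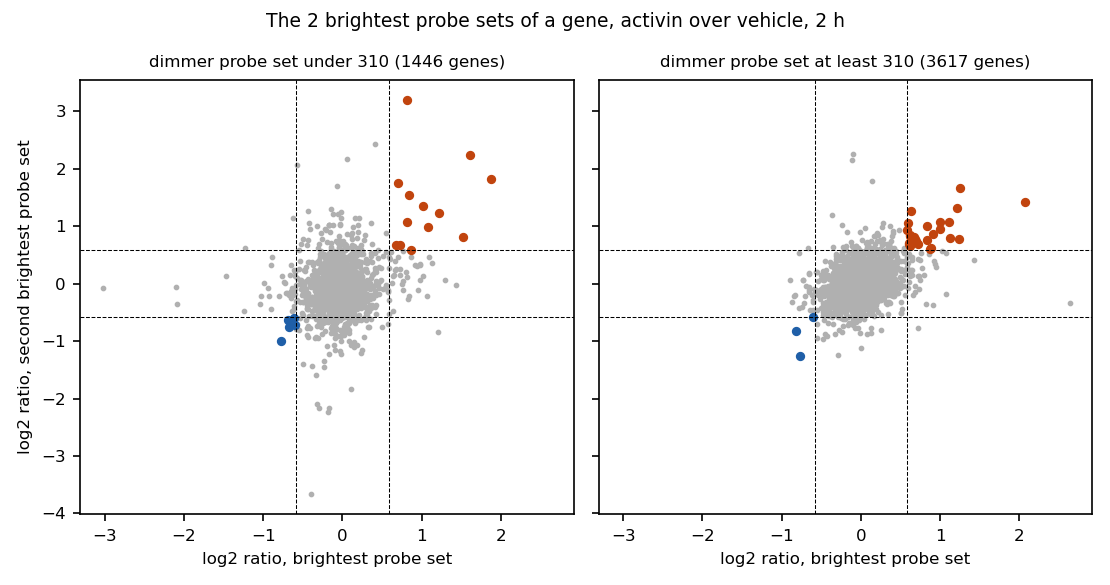
Each point is a gene with at least 2 probe sets past the limit: the x axis is the log2 ratio of activin over vehicle at 2 h on its brightest probe set and the y axis that on its next brightest, in separate panels for a dimmer probe set under 310 and of at least 310. Points in the upper right corner (orange) outnumber those in the lower left (blue).

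The 3 highest of the agreeing genes by their median ratio were Wnt5b, which encodes a secreted Wnt ligand, Adgra1, an orphan adhesion G protein-coupled receptor, and Inhbb, the beta B subunit of activin B and inhibin B. Their promoter windows, from 250 bases before to 50 after the annotated start (RefSeq, GRCm38.p6), are shown because these genes had the largest agreeing ratios. Capitals mark matches on either strand to GTCTAGAC (the palindromic Smad-binding element), CAGAC (its core), GGCGC (the GC-rich Smad site), TGANTCA (AP-1) and AATNCACA (FoxH1); GGCGC can overlap its own reverse complement, GCGCC, within GGCGCC. The windows are chr6:119544298-119544597 on the minus strand for Wnt5b (1 of 3 listed for the gene), chr7:139833924-139834223 on the plus strand for Adgra1 and chr1:119422199-119422498 on the minus strand for Inhbb.
Wnt5b: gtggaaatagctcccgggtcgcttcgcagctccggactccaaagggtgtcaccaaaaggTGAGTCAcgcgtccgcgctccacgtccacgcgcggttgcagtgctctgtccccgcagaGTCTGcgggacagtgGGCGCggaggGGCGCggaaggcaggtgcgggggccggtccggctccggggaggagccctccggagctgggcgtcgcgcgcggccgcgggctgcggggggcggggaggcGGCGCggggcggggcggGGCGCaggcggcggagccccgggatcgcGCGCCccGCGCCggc
Adgra1: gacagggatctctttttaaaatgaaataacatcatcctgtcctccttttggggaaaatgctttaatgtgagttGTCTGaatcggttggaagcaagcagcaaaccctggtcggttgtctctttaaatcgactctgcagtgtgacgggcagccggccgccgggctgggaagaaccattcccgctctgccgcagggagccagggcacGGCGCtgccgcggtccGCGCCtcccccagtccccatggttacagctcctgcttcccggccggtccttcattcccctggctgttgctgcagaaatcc
Inhbb: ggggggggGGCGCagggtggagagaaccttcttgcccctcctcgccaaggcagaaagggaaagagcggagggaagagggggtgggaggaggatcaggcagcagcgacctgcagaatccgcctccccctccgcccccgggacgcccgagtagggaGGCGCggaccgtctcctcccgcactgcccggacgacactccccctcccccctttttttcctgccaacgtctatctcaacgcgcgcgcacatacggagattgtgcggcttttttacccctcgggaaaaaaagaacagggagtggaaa
The Wnt5b window held 1 match to CAGAC, 6 to GGCGC and 1 to TGANTCA, the Adgra1 window 1 to CAGAC and 2 to GGCGC, and the Inhbb window 2 to GGCGC. RefSeq windows were found for 26 of the 31 higher genes, 32 windows in all. CAGAC was present in 16 of the 32 windows (50%), against 47.0% of 11964 windows of genes past the limit and 49.6% of all 32851. GGCGC was present in 25 (78.1%), against 62.8% and 36.9%, and TGANTCA in 2 (6.25%), against 4.94% and 7.81%. GTCTAGAC and AATNCACA were in 0 of the 32, against 0.267% and 2.09% of windows of genes past the limit. A match is a description of letters in this window only.

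Inhbb at 2 h read 6684 (activin) and 2873 (vehicle) on its brighter probe set, and 1614 and 652 on the other. The 3 vehicle arrays lay between 2497 and 2873 on the first, so the activin signal stood 2.33-fold above a steady vehicle level, and 2.47-fold on the dimmer probe set. Wnt5b read 663 and 217.5 on its brighter probe set and 563 and 119.9 on the other, with vehicle arrays at 203 to 227 and 119.9 to 135.9. Its ratios of 3.05-fold and 4.70-fold became 3.05-fold and 3.63-fold with signals under the limit raised to it. Adgra1 read 1125 and 307, 485 and 137, and 337 and 46.5 on its 3 probe sets. On each, the activin array at 2 h was the highest of the 6 arrays, by 3.67-fold, 3.54-fold and 7.24-fold over vehicle, the last 2 against vehicle signals under the limit. With such signals raised to the limit, those 2 ratios were 3.13-fold and 2.17-fold. Cx3cl1, the membrane-bound chemokine fractalkine, read 1907 and 807 (2.36-fold), and 723 and 424 (1.70-fold). Drd4, a dopamine receptor, read 889 and 507, and 416 and 197. Tln2, the integrin-linked cytoskeletal protein talin 2, read 1786 and 885, and 262 and 103, and Chst11, a chondroitin sulfotransferase, read 1764 and 1067, and 276 and 173.

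Samd4, an RNA-binding repressor of translation, had 3 probe sets that read 1511 and 634, 866 and 274, and 423 and 203. These were 2.38-fold, 3.17-fold and 2.09-fold higher, and all 3 activin signals lay above every vehicle array. Irf2bp2, a corepressor, read 3458 and 1599, 1069.6 and 508, and 771 and 449 on its 3 probe sets (2.16-fold, 2.11-fold and 1.72-fold). Its activin signal on the brightest was higher still at 1 h, 3711 against 1245 with vehicle. Gata6, a zinc finger transcription factor, read 2728 and 1780.3, 1459 and 890.5, and 340.1 and 157.3, and Zfpm1, a cofactor of GATA factors, read 3074 and 1993, and 446 and 247. Cxxc5, a CXXC zinc finger protein, read 4879 and 3184, and 1887 and 1201. Mycn, the N-Myc transcription factor, read 654.5 and 281, and 150.5 and 64.4, both 2.3-fold, but its dimmer probe set was under the limit on both arrays at 2 h, and its activin signal there did not leave the range of the vehicle arrays, 64.4 to 209.9. Atf7ip2 read 409 and 193, and 318 and 161. Tent5c, a poly(A) polymerase, read 1779 and 1106, and 452 and 265, and Nupr1, a stress-induced nuclear protein, read 1425 and 948, and 1465 and 768.

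Spsb1, a substrate adaptor of a ubiquitin ligase that acts on the TGF-beta type II receptor, read 1219.7 and 425 on its brighter probe set and 263 and 150 on the other. Its activin signal on the brighter probe set, 2.87-fold over vehicle, was the highest of the 6 arrays, with 740.3 at 1 h and 638 at 6 h. Socs3, an inhibitor of cytokine receptor signalling, read 978 and 550.3, 645 and 321.5, and 715.5 and 343 on 3 probe sets (1.78-fold, 2.00-fold and 2.08-fold). Rnf19b, a ubiquitin ligase, read 1612.5 and 736, and 1413 and 815. Lpin1, a phosphatidate phosphatase, read 2089.8 and 1167, and 1768 and 1042. Cmpk2, a mitochondrial nucleotide kinase known as interferon-inducible, read 1222 and 752, and 318 and 94.5. Tmem229b, a membrane protein, read 1390.3 and 698, and 920.3 and 437. The remaining agreeing genes were Fam13a, Abtb2, D430042O09Rik, Phldb1, Limd1, Tbc1d10a, Kctd14, Efhd2 and Kcnip3. The dimmer probe set of Kcnip3 passed the limit on mean signal through its activin signal at 6 h, 658.8. Its signals on the other arrays were 87.3 to 179.5, with 179.5 and 112.3 at 2 h. With signals under the limit raised to it, its ratio at 2 h was 1.16-fold. Fam13a read 3087 and 1549, and 738 and 382, and Kctd14 was the agreeing gene other than Mycn whose activin signals did not leave the vehicle range, because its vehicle signals at 6 h were higher (4612 against 4331 with activin at 2 h on the brightest probe set).

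**Figure D3:**
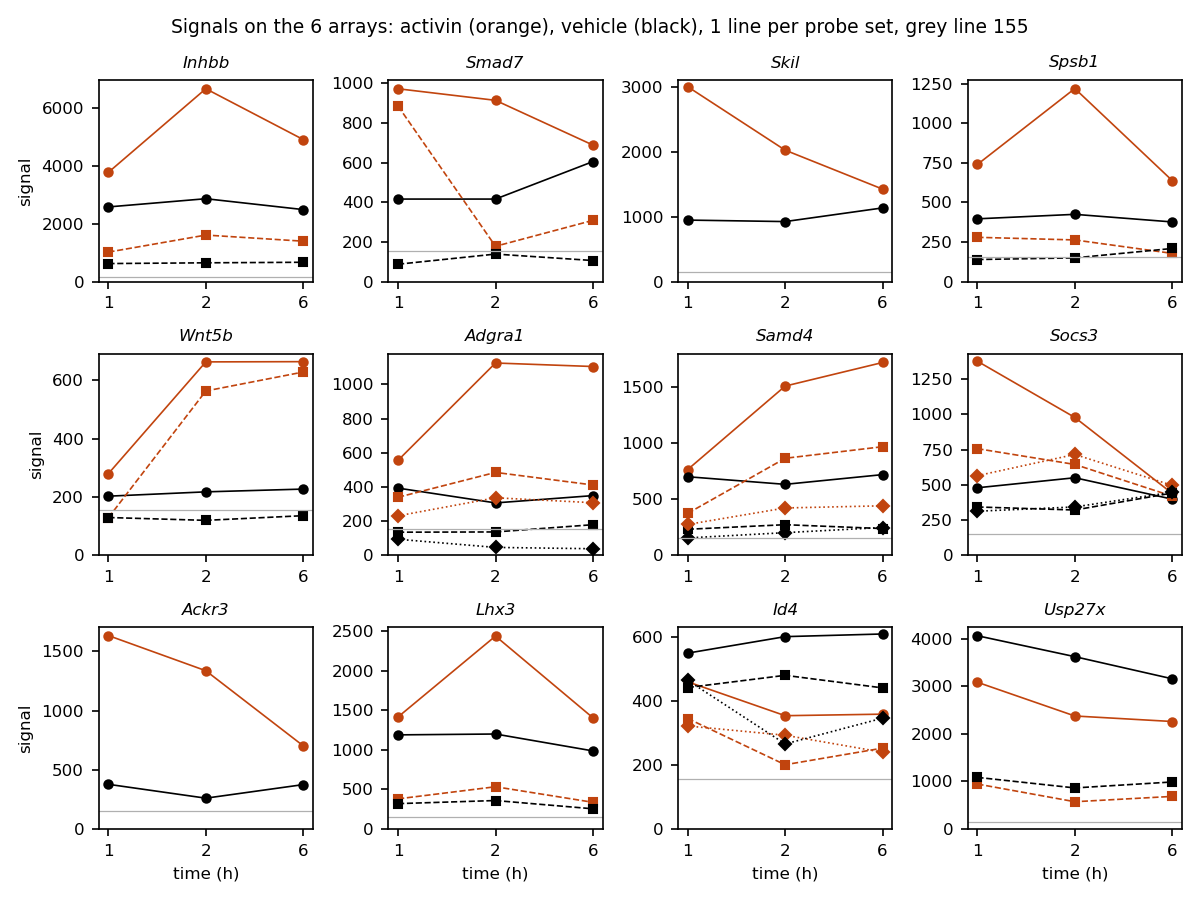
Signals of 12 genes on the 6 arrays: the x axis of each panel is time in h, the y axis the linear signal from 0, orange is activin and black is vehicle, with 1 line per probe set and a grey line at the limit. At 2 h activin lies above vehicle on every probe set of the first 10 genes shown, and below it on both probe sets of Usp27x and on 2 of 3 of Id4.

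Known targets of TGF-beta and activin held some of the clearest higher signals at 2 h. The lists here and below were chosen with earlier results of these data known, so their shares and medians are descriptions only. Counts of list members past 1.5-fold are to be read against 2.77% of all genes higher and 2.92% lower. Of 30 listed genes 15 were measured, and 5 of them (33.3%, against 2.77% of all genes) were higher by at least 1.5-fold and 0 were lower. The list's median log2 ratio was 0.31, against -0.03 for all genes, and it was 0.33 after quantile normalization. The 5 were Smad7, Skil, Cdkn2b, Spsb1 and Inhbb. Smad7, the inhibitory Smad that blocks receptor-activated Smads, read 914 and 416 at 2 h (2.20-fold), above vehicle arrays of 416 to 605. Its dimmer probe set read only 178 and 139 at 2 h (1.28-fold) but 885 and 87.8 at 1 h, so its probe sets did not agree on size. Skil, whose protein SnoN represses Smad complexes, read 2023 and 924 (2.19-fold), with vehicle arrays at 924 to 1135, and its activin signal was higher at 1 h (2999) and lower at 6 h (1424). Cdkn2b, the cyclin-dependent kinase inhibitor p15, read 2722 and 1554 (1.75-fold), and its activin signals were 1869.5 at 1 h and 3116 at 6 h. Ski, the relative of Skil, had the lowest ratio of the list, 931 and 1195 on its brighter probe set (log2 ratio -0.36) and 799 and 887 on the other.

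Of 25 listed receptors and intracellular Smads, 18 were measured, with 2 higher (Smad6 and Smad7; 11.1%, against 2.77% of all genes), 0 lower and a median log2 ratio of 0.05. Above all vehicle arrays lay 11 of the 18 (26.7% of all genes did). Smad6, an inhibitory Smad best known downstream of BMP, read 1159 and 369 (3.14-fold), the highest of the 6 arrays. Smad2, Smad3 and Smad4 had log2 ratios of 0.03, -0.03 and 0.08, and Acvr1b, Acvr2a and Acvr2b, which encode activin receptors, 0.01, -0.03 and -0.01. Acvr1, another type I receptor, read 1281.9 and 993 (1.29-fold), 369.5 and 237 (1.56-fold) and 266 and 249.6 (1.06-fold). Among inhibin subunits, follistatins and ligands, 7 of 22 were measured and 2 were higher (28.6%, against 2.77% of all genes). They were Inhbb and Gdf9, an oocyte growth factor that read 6775 and 4443 (1.52-fold). Inha, the inhibin alpha subunit, read 1119 and 840.2 (1.33-fold), above the 3 vehicle arrays, which spanned 840.2 to 853. Inhba read 63.2 and 27.7 and Fst, which encodes follistatin, 102.2 and 109, all under the limit.

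Targets of BMP, a ligand of the same family that signals through other Smads, were divided. Of 13 listed, 7 were measured, and the median log2 ratio was 0.25. Smad6 (14.3%) was higher and Id4 and Hey1 (28.6%) were lower, against 2.77% and 2.92% of all genes. Id4, an inhibitor of basic helix-loop-helix factors, read 354 and 601.5 on its brightest probe set (1.70-fold lower) and 201.1 and 481 on the next (2.39-fold lower), but 293 and 266 on the third. Id1, Id2 and Id3, its relatives, had ratios on the other side of 0, with 461 and 395, 380 and 294, and 175 and 147 on their brightest probe sets, none of them past 1.5-fold. Msx1, a homeobox repressor, read 2087 and 1529 (1.37-fold).

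The genes with a single probe set past the limit cannot be checked by another probe set, and 205 of the 319 higher and 265 of the 336 lower genes were of this kind. Among those with a mean signal of at least 310 at 2 h and an activin signal outside the vehicle arrays, the 8 highest were Ackr3, Zbed5, Rnf183, Smad6, Chp2, Bcl3, Fa2h and Lama1. Ackr3, the atypical chemokine receptor that takes up CXCL12, read 1336 and 261 (5.12-fold), while the vehicle arrays lay at 261 to 378. Its activin signal was 1633 at 1 h and 702 at 6 h, so the 2 h array stood between them. Zbed5 read 966 and 251 (3.85-fold) and Rnf183, a ubiquitin ligase, 512 and 160.9 (3.18-fold), both above all vehicle arrays. Chp2, a calcineurin B-like protein that binds sodium-proton exchangers, read 1605 and 549.9 (2.92-fold) at 2 h and 1945.5 with activin at 6 h. Bcl3, an atypical IκB protein that works with NF-kappaB in the nucleus, read 494 and 178.5 (2.77-fold), and at 6 h 236 and 259.9. Fa2h, a fatty acid hydroxylase, read 1188 and 436 (2.72-fold) and Lama1, the laminin alpha 1 chain, 1417 and 536 (2.64-fold), and at 1 h their signals with activin and vehicle had been close, at 569.7 and 551 for Fa2h and 544.5 and 512 for Lama1.

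The 8 lowest genes by the same rule were Otp, Cyp2c38, Sox21, Lmx1b, Diras2, Mast1, Nrip2 and Thbs2. Otp, a hypothalamic homeobox factor, read 152 under activin against 758 under vehicle, and 277 and 383 on the other vehicle arrays. Sox21, a repressor of the SoxB group, read 154 and 499, whereas the 1 h arrays gave 511 and 515 and the 6 h arrays 632 and 322. Cyp2c38, a cytochrome P450, read 269.9 and 917, although the other vehicle arrays read 317 and 355. In Otp and Cyp2c38, as in Lmx1b, Diras2, Mast1 and Nrip2, the vehicle array at 2 h was itself the highest of the 6. With the mean of the 3 vehicle arrays as reference, the log2 ratios of Otp and Cyp2c38 went from -2.31 to -1.501 and from -1.76 to -0.80. Those of Nrip2 and Thbs2 went from -1.01 to -0.58 and from -1.01 to -0.51, under 1.5-fold. Sox21, Lmx1b, Diras2 and Mast1 stayed past it, at -1.50, -1.04, -0.77 and -0.73. Lmx1b, a LIM homeobox factor, read 248 and 601.5, with the other vehicle arrays at 479.9 and 462.

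Of the 6 genes lower on every probe set, 4 also lay below all vehicle arrays on each: Kcnq1ot1, Trpc2, Usp27x and Mbd4. Kcnq1ot1, a long noncoding RNA of an imprinted region, read 376 and 663, and 207 and 365 (1.76-fold lower on both). Usp27x, a deubiquitinase, read 2375 and 3620.4, and 574 and 864 (1.52-fold and 1.505-fold lower). It was the bright gene of this group, and its activin array at 6 h was also low, at 2259 and 686.2. Mbd4, a DNA glycosylase, read 421 and 639, and 113.7 and 187, and Trpc2, a cation channel gene, 188 and 288, and 181 and 273. Rasd2 and Hoxa3, the other agreeing lower genes, lay within the vehicle range on at least 1 probe set, with activin signals of 80.8 to 162.6.

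Genes that define the gonadotrope mostly read a little higher with activin. Of 27 listed, 19 were measured: 2 were higher past 1.5-fold (10.5%, against 2.77% of all genes) and 0 lower. At any size 15 read higher, and 13 lay above all 3 vehicle arrays (26.7% of all genes did). The list's median log2 ratio was 0.20, but it was 0.11 after quantile normalization. Lhx3, a LIM homeobox factor of pituitary development, read 2434 and 1199 (2.03-fold) and 534 and 360 (1.48-fold), and its activin array at 2 h was the highest of the 6 on both probe sets. Lhx2, a related factor, read 394 and 259.9 (1.52-fold), with vehicle arrays at 235 to 376. Cga, the alpha subunit shared by the pituitary glycoprotein hormones, read 16715 and 13900.2 (1.203-fold), and its log2 ratio of 0.27 was 0.00 after quantile normalization. That method gives probe sets of equal rank the same value on every array. The 0.00 of Cga, the brightest gene by mean signal, therefore cannot show whether it differed. Lhb, the luteinizing hormone beta subunit, read 863 and 715 (1.21-fold) and Gnrhr, the receptor of gonadotropin-releasing hormone, 3595 and 2985 (1.204-fold), both above all vehicle arrays. Nr5a1, the steroidogenic factor 1 of gonadotropes, read 2858 and 3429 (log2 ratio -0.26) and Nr0b1, its repressor, 5537.5 and 6423 (1.16-fold lower), both below all vehicle arrays. Foxl2, a forkhead factor that works with Smads on Fshb, read 4585 and 3749 (1.22-fold), and 486 and 327 (1.49-fold), and Pitx1, a pituitary homeobox factor, 5744 and 4613 (1.25-fold), and 4756 and 3729 (1.28-fold). Egr1, the factor that GnRH uses on Lhb, read 287 and 250.1.

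Ribosomal protein genes, another bright list, read higher too. Of 28 listed, 20 were measured and all 20 read higher than every vehicle array, by a median log2 ratio of 0.15 that was 0.04 after quantile normalization; the 1 past 1.5-fold was a dim probe set of Rps27, at 247 and 92.7. As said above, quantile normalization lowers a shift shared by bright genes whatever its source. The part of this tilt of bright genes in the gonadotrope values was not tested. The 11 housekeeping genes had a median log2 ratio of -0.03, with Actb at -0.03 and Rplp0, a bright ribosomal gene, at 0.10.

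Other developmental regulators showed members on either side. Of 18 measured genes of the LIM, SoxC and homeodomain list, 3 were higher (Lhx3, Lhx2 and En2) and 2 lower (Meis1 and Lhx9). These were 16.7% and 11.1%, against 2.77% and 2.92% of all genes, and the list's median log2 ratio was 0.02. En2, the homeobox factor engrailed 2, read 2116 and 1157 (1.83-fold), above vehicle arrays of 1066 to 1350.2. Meis1, a homeodomain cofactor, read 222 and 413.5 (1.87-fold lower), and 156 and 211. In the Notch and neurogenic list, 1 of 19 (5.26%) was higher and 3 (15.8%) lower, against 2.77% and 2.92% of all genes. The higher gene was Hes1, a Notch-responsive repressor, with 624 and 322 (1.94-fold), and the lower ones were Hey1, Neurod1 and Neurod4, all dim, with Neurod1 at 177 and 275 and Neurod4 at 94.2 and 208.

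Genes of chemokine, interleukin-1 and NF-kappaB signalling included several high ratios. Of 22 measured, 4 (18.2%) were higher, Ackr3, Bcl3, Irak2 and Birc3, and 2 (9.09%) lower, Tab1 and Traf6, against 2.77% and 2.92% of all genes, and the median log2 ratio was 0.06. Irak2, a kinase of the interleukin-1 receptor complex, read 982 and 416 (2.36-fold), with vehicle arrays at 318 to 416 and activin arrays at 719 to 982. Birc3, a ubiquitin ligase of the inhibitor of apoptosis family, read 1494 and 907 (1.65-fold), and at 6 h 886 and 840.2. Nfkbia, the inhibitor induced by NF-kappaB, had a log2 ratio of 0.38 and Cxcl1, a chemokine, 0.09, neither past 1.5-fold.

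Cytokine feedback genes had 2 of 20 higher (10%, against 2.77% of all genes), Socs3 and Stat5a, and 0 lower. Socs2, a suppressor of growth hormone signalling, was read differently by its 3 probe sets, with 698 and 757 on the brightest, 791 and 177 on the next (4.46-fold) and 424 and 187.5 on the third (2.26-fold). The median of the probe sets gave a log2 ratio of 1.18, against -0.12 on the brightest, and which of them reads the gene rightly was not tested. Lrig1, an inhibitor of growth factor receptors, was similar, with 514 and 578 on the brightest probe set, 659 and 353 on the next and 759 and 347 on the third. Of the 4 genes with SPRY and SOCS box domains, Spsb1 was higher and Spsb2, Spsb3 and Spsb4 had log2 ratios of -0.04, -0.01 and 0.34.

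Corepressors and chromatin enzymes had 3 of 26 higher (11.5%, against 2.77% of all genes) and 0 lower. Besides Irf2bp2 these were Kdm5b, a histone H3 lysine 4 demethylase, at 1548 and 820.1 (1.89-fold) and 535 and 295 (1.82-fold), with 156 and 170.3 on its dimmest probe set, and Tle3, a Groucho corepressor, at 1826 and 1005 (1.82-fold). Tle1, a close relative of Tle3, read 1110.2 and 1479.5, and 589 and 952, both on the lower side. In the ETS and Kruppel-like list, with 17 measured, Ets2 and Klf13 (11.8%) were higher and Klf6 (5.88%) lower, against 2.77% and 2.92% of all genes. Ets2 read 4399 and 2509.9 (1.75-fold), and 723 and 78.7 on its next probe set, where every vehicle array was under the limit, so that the ratio with signals raised to the limit was 4.66-fold; its dimmest probe set read 178.5 and 231, on the lower side. In the Wnt list 2 of 18 (11.1%, against 2.77% of all genes) were higher, Wnt5b and Wnt5a, and 0 lower. Wnt5a, the closest relative of Wnt5b, read 245 and 145.7. Axin2, a standard target of beta-catenin, read 417 and 535 (1.28-fold lower) and Lef1 had a log2 ratio of -0.11.

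Lists of growth and stress genes had few members past 1.5-fold, and some of their medians lay below 0. Of 18 measured immediate early genes 1 was higher (Nr4a2) and 3 lower (Myc, Nr4a1 and Klf6), with a median log2 ratio of -0.16. The 3 lower genes were 16.7%, against 2.92% of all genes. They lay in the dimmest of the 4 brightness groups, where 8.45% of genes were lower. The activin signal of Nr4a2, 280.3, lay within the range of the vehicle arrays, 153.7 to 402.4. Fos read 478 and 339 at 2 h (1.41-fold), after 696 and 338 at 1 h. Myc, the c-Myc transcription factor, read 187 and 324 (1.73-fold lower), and its activin signals of 164 to 187 lay below its vehicle signals of 301 to 339. Of 26 mitosis genes 0 were past 1.5-fold in either direction, and of 29 replication genes 1 was, Orc1, lower on 1 of its 2 probe sets. Of 19 genes of the G1 phase, Cdkn2b was higher and 0 lower, and Ccnd1, cyclin D1, had a log2 ratio of 0.06. Of 17 apoptosis regulators 0 were higher and 1, Bid, lower, at 111.5 and 236, with a list median log2 ratio of -0.19 and 11 of the 17 below all vehicle arrays (33.3% of all genes were). Of 27 genes of the unfolded protein response, Sel1l, an adaptor of endoplasmic reticulum-associated degradation, was higher, and its 5 probe sets were between 1.25-fold and 2.03-fold higher. The heat shock, hypoxia and glycolysis, secretory granule and calcium and cyclic AMP lists, with 10, 22, 20 and 38 measured genes, had 0 past 1.5-fold, and their medians lay between 0.00 and 0.07.

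**Figure D4:**
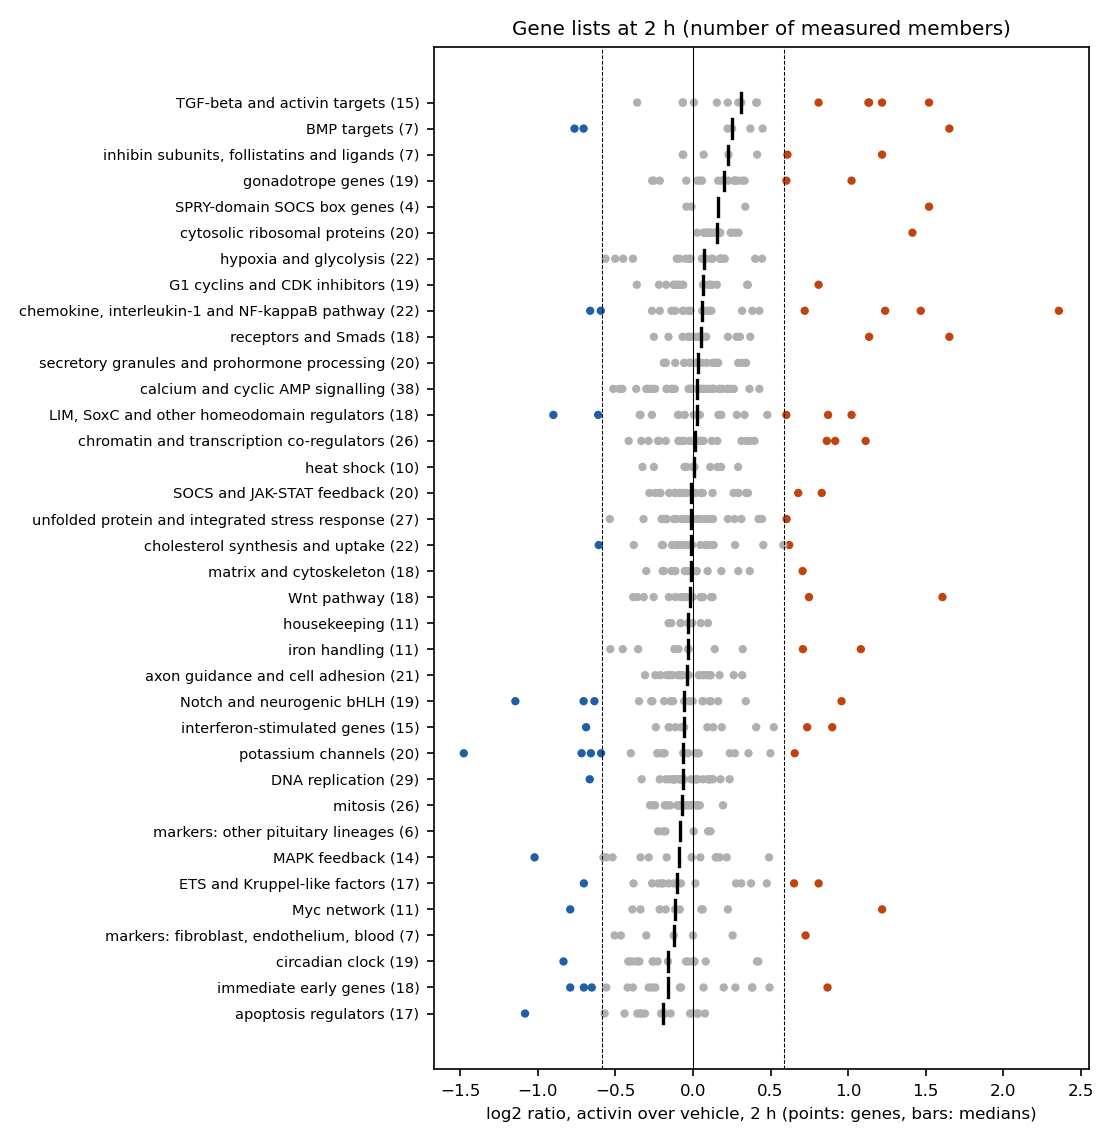
Each row is a gene list with its number of measured members, the x axis is the log2 ratio of activin over vehicle at 2 h, points are genes (orange at least 1.5-fold higher, blue at least 1.5-fold lower) and bars are list medians. The TGF-beta and activin targets have the highest median, 0.31, and the apoptosis regulators the lowest, -0.19, while most lists are centred near 0 with few members past the dashed lines. The lists were chosen with earlier results of these data known.

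The 1 h and 6 h comparisons rest on other arrays, and they give the 2 h ratios a check in other cultures. At 1 h, 15 genes (0.296%) were higher on every probe set, and at 6 h 42 (0.83%). Of the 31 genes of this kind at 2 h, 27 read higher with activin at 1 h and all 31 at 6 h on their brightest probe set, against 42.4% and 45.5% of all genes. Kcnip3 is among the 31 only because of the 6 h activin signal of its dimmer probe set, so for this gene 6 h is not a fully separate check. At least 1.5-fold, 5 of the 31 were higher at 1 h (16.1%, against 2.5% of all genes) and 19 at 6 h (61.3%, against 3.9%). By this measure 4 of the 31 were past 1.5-fold at all 3 times, 15 at 2 h and 6 h but not 1 h, 1 at 1 h and 2 h but not 6 h, and 11 at 2 h alone. Wnt5b, Adgra1, Samd4, Fam13a, Tmem229b, Cx3cl1 and Tln2 belonged to the 15, with log2 ratios on the brightest probe set from -0.01 to 0.50 at 1 h and from 1.01 to 1.66 at 6 h. Other probe sets of some of these were past 1.5-fold already at 1 h. Their log2 ratios were 1.33 and 1.30 for Adgra1, 0.69 and 0.83 for Samd4, 0.70 for Cx3cl1 and 0.62 for Tmem229b. Those of Wnt5b, Fam13a and Tln2 were not past it at 1 h. Irf2bp2, Spsb1, Atf7ip2 and Drd4 were past 1.5-fold at all 3 times on this probe set, but the other probe set of Drd4 had log2 ratios of -0.19 at 1 h and 0.46 at 6 h, and that of Spsb1 -0.23 at 6 h. The brightest probe set of Socs3 was past it at 1 h and 2 h, with log2 ratios of 1.52, 0.83 and 0.14 at 1, 2 and 6 h. Lpin1, Gata6, Zfpm1, Cxxc5, Tent5c, Efhd2 and D430042O09Rik were past it at 2 h alone on their brightest probe set, with log2 ratios of 0.14 to 0.26 at 6 h. Other probe sets of some were past it at other times, with 0.97 for Zfpm1 at 6 h, and 0.60 for Tent5c and 0.72 for Gata6 at 1 h.

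The shares for higher and lower genes are given side by side, and their contrast was not tested. Of the 319 genes higher on their brightest probe set, 66.8% were on the same side at 1 h and 74.9% at 6 h, where 42.4% and 45.5% of all genes were. Of the 336 lower genes, 52.1% were on the lower side at 1 h and 56.5% at 6 h, against 57.6% and 54.4% of all genes. The lower genes were therefore on the same side at other times about as often as all genes. At 1 h, 28 of them (8.33%, against 3.05% of all genes) read lower by at least 1.5-fold, while 31 read higher by that much, as 2.5% of all genes did. At 6 h, 53 of them (15.8%, against 3.31% of all genes) were lower by at least 1.5-fold and 34 were higher by that much, as 3.9% of all genes were. With a filter at the 70th percentile of mean signal, which left 71 lower genes, the shares on the lower side were 70.4% at 1 h and 66.2% at 6 h. The shares of all genes under that filter are not given here, so these values have no baseline. Of the 6 genes lower on every probe set at 2 h, 4 were lower at 1 h and 6 at 6 h on their brightest probe set. The other probe set of Rasd2 was on the higher side, with log2 ratios of 1.01 at 1 h and 0.94 at 6 h. That of Hoxa3 was too, with 0.31 and 0.59.

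**Figure D5:**
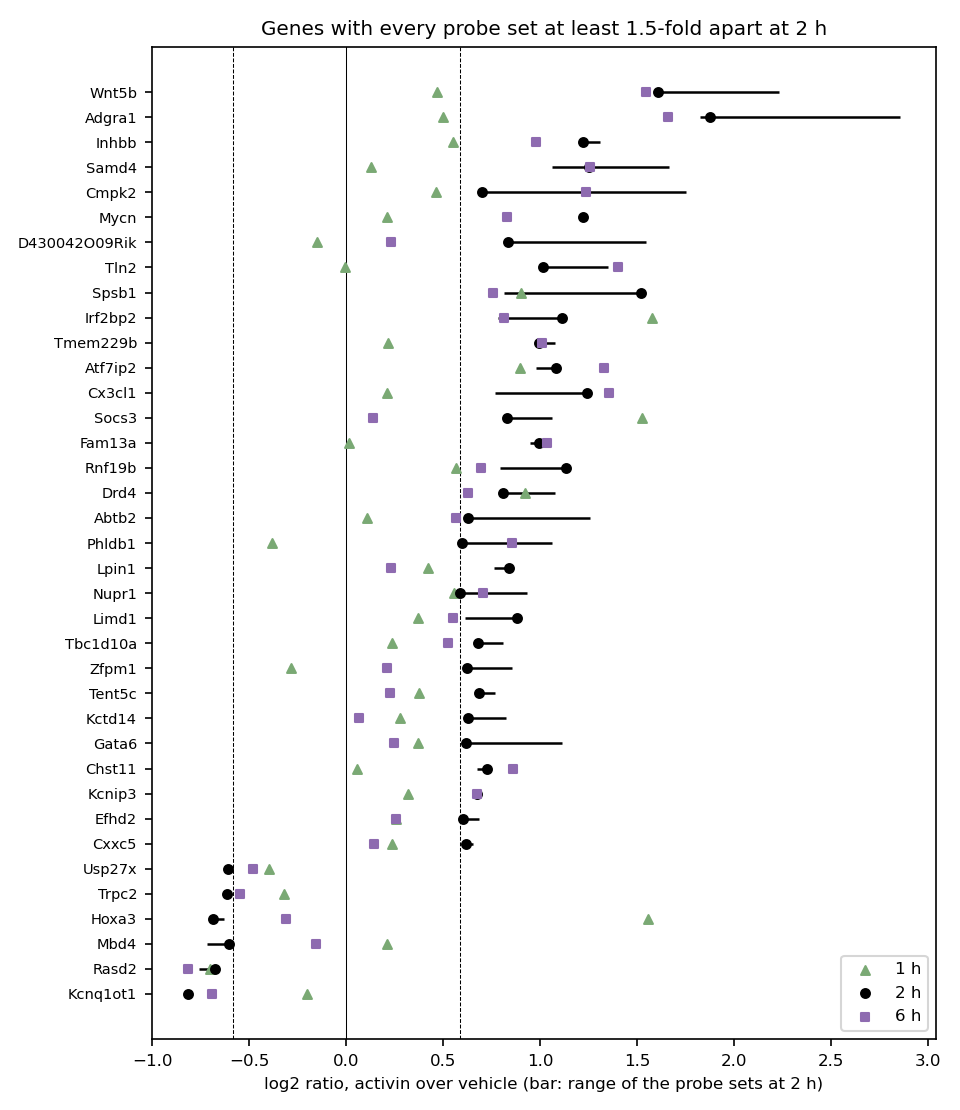
Each row is a gene whose probe sets were all at least 1.5-fold apart at 2 h, 31 higher and 6 lower, in order of median ratio: the x axis is the log2 ratio of activin over vehicle on the brightest probe set at 1 h (triangles), 2 h (circles) and 6 h (squares), and bars span the probe sets at 2 h. All 31 higher genes lie right of 0 at 6 h, 27 of them at 1 h, and Hoxa3 lies at 1.56 at 1 h although it is lower at 2 h.

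In 21 genes probe sets passed 1.5-fold in opposite directions, and the 4 with the widest gaps were Fam193a, Plk2, Topors and Rc3h2. Plk2, a polo-like kinase, read 790 and 341 on one probe set (2.32-fold) and 109.9 and 197 on another (1.79-fold lower). Topors, a ubiquitin and SUMO ligase, read 697 and 1643 on its brightest probe set (2.36-fold lower), but 310 and 202 on the next. Rc3h2, a regulator of mRNA decay, read 1971 and 2130.2, 1607 and 1023, and 196 and 424 on 3 probe sets, and no direction can be given for these genes.

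The authors' deposited table for 2 h lists 23 distinct entries, 21 higher and 2 lower, under a header that counts 112 genes past 1.5-fold with a signal difference over 100. By the signals, 281 genes (2.44%) were higher and 245 (2.13%) lower by at least 1.5-fold and such a difference. Of 19 entries of the authors' deposited table that matched a measured gene, all 19 had the same sign as the signal ratio, and 14 were at least 1.5-fold apart by it. The authors' deposited table gives 2.35 for Inhbb, 2.54 for Smad7 and -1.69 for Id4, where the signals gave 2.33, 2.20 and -1.70. The authors' deposited table gives 1.65 for Skil and 1.8 for Bcl3, which the signals of the brightest probe set put at 2.19 and 2.77, and 1.62 for Pgf, a vascular growth factor, and -1.58 for Nf2, the tumour suppressor merlin, which those signals put at 1.05 and -1.03. How the folds of the authors' deposited table were made is not stated in the labels or the files, and the probe sets of Skil and Nf2 whose ratios lay nearest to the authors' deposited table had log2 ratios of 0.58 and -0.23.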

How the data were processed

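RNA from 6 LβT2 cultures (treatment with activin A or vehicle, 3 times) was read on 1 Affymetrix mouse array each. The authors deposited intensity values, 1 linear signal per probe set, made with GCOS 1.4 (per the submitters' processing notes) under settings unknown here. Since every array had a mean of 500.002 after trimming 2% at either end, no further scaling was applied. The authors' deposited table for 2 h holds signed folds (a score), used only for comparison.

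Probe sets under the limit on mean signal given in the report, 64 control probe sets, and 932 with several genes and 9160 with none were left out of gene counts. Names came from the platform annotation for 34945 probe sets with 1 gene, 34741 of them updated through RefSeq. The brightest probe set stood for a gene, log2 ratios used no pseudocount, and a call meant at least 1.5-fold. With 1 array a group no test exists. The steps were tested on simulated data.

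Genes named were the 10 highest and 10 lowest with agreeing probe sets outside the vehicle range (4 were lower), the 8 highest and 8 lowest with a single probe set, fixed pathway genes, the 4 members of each list with the largest ratios, and 4 genes with opposed probe sets. Names outside this rule, which include the other agreeing genes and list members given as examples, were chosen after their values were seen. Genes and lists were chosen with earlier results of these data known. Python 3.11.15, pandas 2.3.3 and numpy 2.4.6 were used. The alternatives were other filters, median centring, quantile normalization, a pseudocount of 50, signals raised to the limit, the median of probe sets, the mean of the vehicle arrays as reference and a 2-fold threshold. The number of arrays limits the precision.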

Additional observations from a re-analysis of the deposited data

Results flagged for a closer look

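In 6 genes named in the text the difference at 2 h on the brightest probe set lay on the opposite side at another time, each by at least 1.5-fold, and none of these contrasts between times was tested. Dimmer probe sets are not in this count, and some turned as well. Log2 ratios at 2 h were 1.22 for Mycn, -0.76 for Rasd2 and -2.51 for Fam193a on such a probe set. They were -1.20 for Mycn at 6 h, 1.01 and 0.94 for Rasd2 at 1 h and 6 h, and 1.08 for Fam193a at 1 h. Kcna2, a voltage-gated potassium channel, had a log2 ratio of -1.48 at 2 h (139 with activin, 387 with vehicle) and 1.07 at 1 h (226 and 108), and the activin signal at 2 h and the vehicle signal at 1 h were under the limit. Sox21 had a log2 ratio of -1.69 at 2 h and 0.97 at 6 h, and Thbs2, an extracellular matrix glycoprotein, had -1.01 at 2 h (222 and 446) and 0.88 at 1 h (412 and 224). Hey1, a basic helix-loop-helix repressor, had -0.70 at 2 h (99.6 and 162), against 0.63 at 1 h (173.5 and 112) and 1.07 at 6 h (268 and 128). Hoxa3, a homeobox factor, had -0.68 at 2 h (118 and 190 on its brightest probe set) and 1.56 at 1 h (354 and 120), but its other probe set had 0.31 at 1 h. Kcna1, another voltage-gated potassium channel, had 0.66 at 2 h (204 and 130) and -1.05 at 6 h (105 and 217). In Hey1, Hoxa3 and Kcna1 each of these pairs held a signal under the limit.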

How the results depend on the processing

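No paired analysis was possible because each group has 1 array and the labels carry no replicate numbers. The genes higher on every probe set (31) numbered 26 to 32 under the scaling, pseudocount, raised-signal, probe set median and mean-vehicle alternatives (26 of 29 shared with the 31 under quantile normalization, 20 of 30 with the mean vehicle reference), but 120 with no filter and 6 at 2-fold. The genes lower on every probe set (6) numbered 102 with no filter, 1 with a filter at the 70th percentile of mean signal, 3 with median centring, 2 with quantile normalization, 1 with a pseudocount of 50, 3 with signals under the limit raised to it and 0 at 2-fold. Higher and lower genes by the brightest probe set (319 and 336) were 1584 and 1962 with no filter, 159 and 71 at the 70th percentile and 73 and 70 at 2-fold; with a pseudocount of 50 the lower genes were 214. The 35 higher genes of the brightest group were 23 with quantile normalization. Shares on the same side at other times also moved, and the shares of all genes under the same alternatives are not given here. For higher genes at 1 h (66.8%) they were 54.4% with no filter, 76.7% at the 70th percentile, 63.2% with quantile normalization, 69.5% with the pseudocount and 64.0% with raised signals. For higher genes at 6 h (74.9%) they were 60.2%, 86.8%, 70.3% and 77.8% under the first 4 of these and 79.5% at 2-fold. For lower genes at 1 h (52.1%) they were 45.2% with no filter, 70.4% at the 70th percentile, 47.3% with centring, 56.9% with raised signals and 45.7% at 2-fold, and at 6 h (56.5%) 45.3%, 66.2% and 48.6% with no filter, at the 70th percentile and at 2-fold. For the agreeing higher genes they were 66.7% at 1 h and 65.8% at 6 h with no filter, 95.2% at 1 h at the 70th percentile and 96.6% at 6 h with quantile normalization. The cause of these moves was not tested, except that no filter and the 70th percentile test more and fewer genes by construction.

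Of 1471 values of 170 named genes under 9 alternatives, 0 differences of at least 1.5-fold turned direction, and 20 smaller ones did, among them Bmf, Lrig1 and Socs2 with the median of the probe sets. Of 36 list medians, 40 of 324 values changed sign. With signals under the limit on either array, a ratio has little behind it, and 1 culture a group leaves the spread between cultures unknown.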

Other observations

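Some further lists had members on the activin array at 2 h that differed from vehicle by at least 1.5-fold, to be read against 2.77% of all genes higher and 2.92% lower. In the iron list, 2 of 11 measured genes (18.2%) were higher and 0 lower: Slc40a1, the iron exporter ferroportin, read 1616 and 764 (2.12-fold), and 973 and 670 (1.45-fold), above all vehicle arrays on both probe sets, and Cybrd1, a ferric reductase, read 259 and 158. Among 20 measured potassium channel genes, 1 (5%) was higher (Kcna1) and 4 (20%) lower (Kcna2, Kcnn2, Kcnj3 and Kcna6). Kcna2 and Kcnj3 lay in the dimmest of the 4 brightness groups, where 8.45% of genes were lower. Kcnn2, a small-conductance calcium-activated channel, read 316 and 519, with the other vehicle arrays at 420.1 and 567. In the interferon list 2 of 15 (13.3%) were higher, Rtp4 at 1976 and 1061 (1.86-fold) and Irf7 at 352 and 211, and Ddx58 (6.67%) was lower. Of 19 clock genes, Cry2 was lower, at 229.7 and 409.5, and Dbp read 2804 and 3601 (1.28-fold lower), and 1526 and 2280.1 (1.49-fold lower). Of 22 cholesterol genes, Msmo1 was higher and Hsd17b7 lower. Of 7 markers of connective, endothelial and blood cells that were measured, Pecam1 was higher, at 952 and 576 (1.65-fold), while Cdh5 and Kdr, other endothelial markers, had log2 ratios of -0.12 and 0.00.

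Of 2988 probe sets past the limit that name no single gene, 94 (3.15%) were at least 1.5-fold higher and 195 (6.53%) lower.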
